A study of Mus musculus with 7 samples.

Results

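The genes of mouse chromosome 3 were examined as a block, because their levels moved together in some of the cell lines profiled and not in others. A gene was a member when it lay on chromosome 3 of the build mm10 and reached at least 0.5 CPM (counts scaled to a common library size) in 3 or more of the 7 libraries, apart from 12 passing genes that were left out by name and are not reported here. This gave 545 members among the 1153 chromosome 3 genes in the count tables and the 12303 genes tested across the series. Another 205 chromosome 3 genes had counts but stayed under the filter, and 391 had 0 counts in all 7 libraries. The chromosome was picked for its deviations, which are each gene's log2 CPM minus its median over the 7 libraries. The deviations are therefore given as a description, with no test. Among the members closest to the filter, Ankrd34a had a third-highest level of 0.532 CPM and Cyp2u1 of 0.551 CPM, whereas Cetn4 and Gm8234 fell just outside at 0.492 CPM.

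The libraries were made from cell lines grown out of end-stage lymphomas of male C57BL/6 mice. Every mouse, controls included, carried the Eµ-Myc transgene, in which the immunoglobulin heavy chain enhancer drives Myc in the B lineage. The wild-type group held 3 libraries of lines with an intact Smchd1 gene. The Smchd1 null group held 4 libraries of lines homozygous for a mutant allele, Smchd1 MD1/MD1. Neither age nor the relation between lines is given, and tumour lines can carry changes of their own. P-values measure only the spread between these libraries, and whether wild-type replicates 2 and 3 are independent lines is not given. Wild-type replicate 1 was the only library of batch 1 and the only one read single-end, and the other 6 formed batch 2 and were read paired-end.

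Chromosome 3 is a medium-sized mouse autosome whose centromere lies at the low end of the coordinates. A diploid cell holds a pair of copies of it, and the RNA of an autosomal gene comes as a rule from both. Tumour cell lines often gain or lose whole chromosomes or stretches of them, and RNA counts alone do not measure the number of copies. Smchd1 encodes a chromatin protein related to the SMC family that takes part in silencing on the inactive X chromosome and at clustered gene families. In RNA from many cells at once, a lower level in every cell and a loss from a share of the cells cannot be told apart.

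Depth ranged from 3626853 counts in wild-type replicate 1 to 7519549 in Smchd1 null replicate 4, so that 3 counts correspond to 0.827 and 0.399 CPM at these ends. Smchd1 was at 248.1, 230.3 and 218.7 CPM in the wild-type lines and between 22.6 and 28.7 CPM in the null lines, every null line below every wild-type line. The summed level of 9 B cell markers lay between 2861 and 4062 CPM in all 7 libraries, with Ighm holding most of it. In Smchd1 null replicate 4, Cd79a was at 100.4 CPM, Ebf1 at 25.5, Cd22 at 25.4, Vpreb3 at 21.01 and Pax5 at 16.6, each below the other 6 libraries. The remaining markers lay inside the range of the other 6 libraries, with Ighm at 2368 CPM, Cd79b at 302.9, Ms4a1 at 0.80 and Vpreb1 at 0.53. The part of this in the results was not tested. Marker sums stayed at or under 0.5 CPM for 7 T cell genes, 1.1 CPM for 5 erythroid genes and 27.1 CPM for 7 myeloid genes. The 4 fibroblast genes summed to 10.2 CPM in wild-type replicate 1 and to at most 0.3 CPM elsewhere. Of 5 endothelial genes, summing to between 47.7 and 223.4 CPM, Pecam1 held nearly all counts and Kdr and Tie1 were at 0. Wild-type replicates 2 and 3 were much closer to each other than any other pair, at a leading log2 distance of 1.26 against 3.11 or more. Their counts differed by more than sampling noise, which separate libraries of 1 line would also do. The labels list them as separate samples and they were kept so, but whether they are independent lines is not given.

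Promoters of 5 members that stand for the patterns described here are shown, as the 250 bases before the annotated start in the RefSeq annotation of GRCm38.p6, 5′ to 3′ on the strand of the gene, with every CpG dinucleotide in capitals. Setdb1 (chr3:95357203-95357452, minus strand) and Psmd4 (chr3:95042615-95042864, minus strand) belong to a stretch that was high in wild-type replicate 1. Selenbp1 (chr3:94932833-94933082, plus strand) is a member of the same stretch that was not high there. Gnai3 (chr3:108146153-108146402, minus strand) was lower and Rap2b (chr3:61364257-61364506, plus strand) higher in the null lines.
Setdb1: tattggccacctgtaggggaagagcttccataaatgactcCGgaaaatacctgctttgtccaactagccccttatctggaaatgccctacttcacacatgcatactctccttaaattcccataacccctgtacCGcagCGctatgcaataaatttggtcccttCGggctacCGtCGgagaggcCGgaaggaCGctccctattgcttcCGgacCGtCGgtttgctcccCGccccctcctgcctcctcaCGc
Psmd4: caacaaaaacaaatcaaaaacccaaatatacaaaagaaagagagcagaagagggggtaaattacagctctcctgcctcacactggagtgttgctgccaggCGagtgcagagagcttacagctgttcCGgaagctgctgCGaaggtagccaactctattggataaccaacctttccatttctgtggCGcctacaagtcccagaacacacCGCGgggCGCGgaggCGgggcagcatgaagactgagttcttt
Selenbp1: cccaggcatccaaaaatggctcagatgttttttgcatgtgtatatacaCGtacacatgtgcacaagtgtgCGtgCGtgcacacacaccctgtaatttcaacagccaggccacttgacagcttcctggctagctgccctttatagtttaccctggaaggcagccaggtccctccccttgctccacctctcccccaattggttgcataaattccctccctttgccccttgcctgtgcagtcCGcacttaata
Gnai3: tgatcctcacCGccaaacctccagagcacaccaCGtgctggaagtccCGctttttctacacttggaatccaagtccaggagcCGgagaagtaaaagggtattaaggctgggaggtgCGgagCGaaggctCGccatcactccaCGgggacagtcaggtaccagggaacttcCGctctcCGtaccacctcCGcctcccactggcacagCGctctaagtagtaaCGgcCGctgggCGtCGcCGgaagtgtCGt
Rap2b: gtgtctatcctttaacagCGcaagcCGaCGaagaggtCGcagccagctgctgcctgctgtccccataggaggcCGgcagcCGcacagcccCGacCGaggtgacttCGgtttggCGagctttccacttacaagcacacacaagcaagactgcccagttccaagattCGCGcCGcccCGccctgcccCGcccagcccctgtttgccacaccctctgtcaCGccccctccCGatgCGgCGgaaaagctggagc
The windows held 13 CpG dinucleotides for Setdb1, 9 for Psmd4, 4 for Selenbp1, 18 for Gnai3 and 19 for Rap2b. The E-box CACGTG, a palindrome that Myc and its partner Max are known to bind, occurred once among them, in Gnai3. A promoter was listed for 421 of the 545 members. Their median CpG count was 16, the same as for the 8572 tested genes of other autosomes with a listed promoter and above the 6.0 of all 27025 promoters in the table. CACGTG was present in 42 of the members' 421 windows, 8.8% of those of tested genes on other autosomes and 6.0% of all.

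Smchd1 null replicates 1 and 2 had lower levels over most of chromosome 3 than the other 5 lines. The median deviation over the 545 members was -0.37 in Smchd1 null replicate 1 and -0.40 in Smchd1 null replicate 2. It was 0.01 in Smchd1 null replicate 3 and 0.00 in Smchd1 null replicate 4, and 0.19, 0.09 and 0.05 in wild-type replicates 1, 2 and 3. The group means were -0.19 ± 0.23 (SD, n = 4) and 0.11 ± 0.07 (SD, n = 3). The range within the null group was wider than the gap between these means. The median over the 10998 genes of the other autosomes was 0 in every library. Members below their own reference made up 78.3% and 85.1% of the 545 in Smchd1 null replicates 1 and 2, and between 19.3% and 40.0% in the other 5 lines. The corresponding share on the other autosomes ran from 38.3% to 46.3%.

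**Figure D1:**
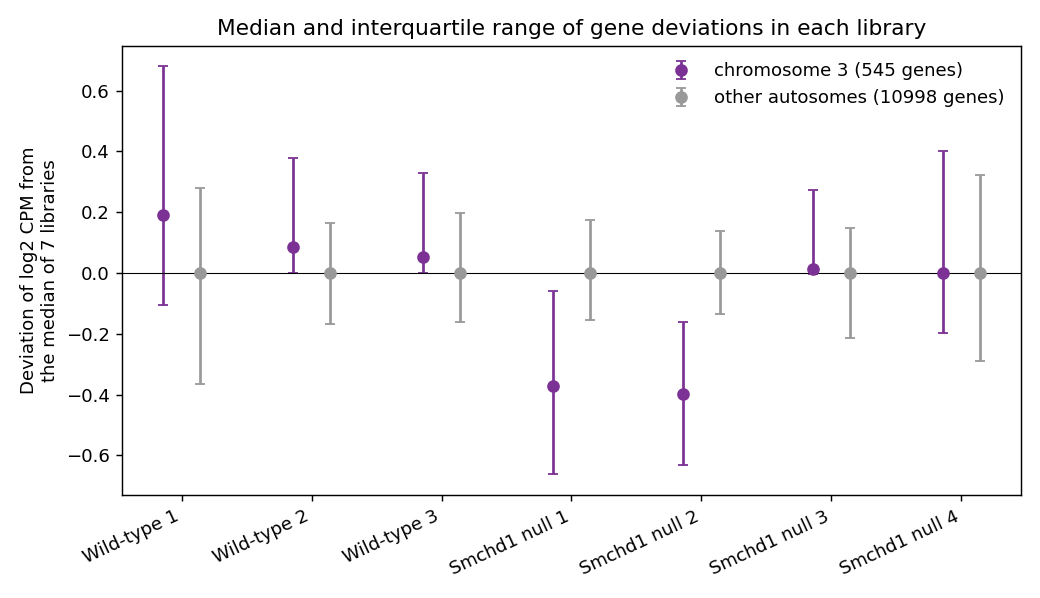
Median (points) and interquartile range (bars) of the deviation of log2 CPM from the 7-library median, for the 545 chromosome 3 members and the 10998 genes of the other autosomes, in each library. In Smchd1 null replicates 1 and 2 the medians lie at -0.37 and -0.40 and the whole interquartile range is below 0, whereas the other autosomes centre on 0.

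Because the reference is a median of 7 libraries and 2 of them were low, the deviations understate the gap between lines, and ratios between libraries were also taken. Over the members, the median log2 ratio was -0.50 for Smchd1 null replicate 1 against Smchd1 null replicate 3 and -0.45 against Smchd1 null replicate 4. For Smchd1 null replicate 2 the same ratios were -0.54 and -0.48. Within the null group the remaining pairs were close, at 0.02 for replicate 1 against replicate 2 and 0.05 for replicate 3 against replicate 4. Wild-type replicate 2 exceeded Smchd1 null replicates 1 and 2 by 0.55 and 0.57, but Smchd1 null replicate 3 by only 0.05 on the same scale. The lines with low chromosome 3 levels were thus 2 of the 4 null lines.

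Member by member, Smchd1 null replicates 1 and 2 were the lowest pair of the 7 libraries in 257 members (47.2%), against 6.46% of the genes on the other autosomes. The chromosome as a whole took 3.62% and 3.57% of all counts in these libraries. It took between 4.97% and 5.15% in the other 4 batch 2 libraries, and 6.66% in wild-type replicate 1. Among the 19 autosomes, chromosome 3 had the lowest median deviation in Smchd1 null replicates 1 and 2 and the highest in wild-type replicate 1. Shifts of this size were not limited to it. Of 133 medians of an autosome in a library, 9 were 0.3 or more in size, spread over 6 autosomes. These counts include chromosome 3 in Smchd1 null replicates 1 and 2, and the others were on chromosomes 13, 15, 16, 18 and 19.

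**Figure D2:**
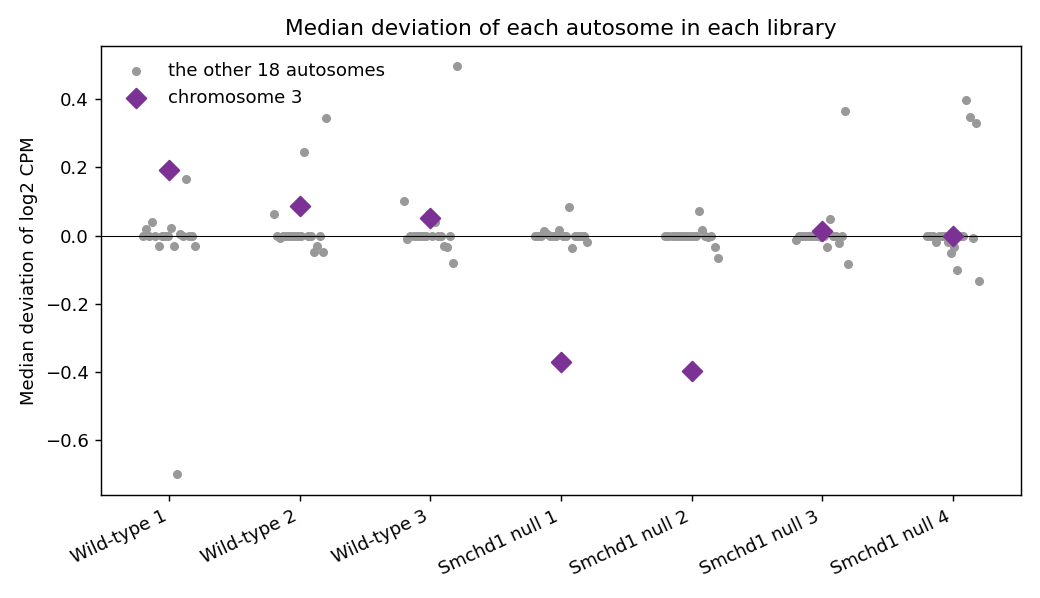
Median deviation of log2 CPM for each of the 19 autosomes (vertical axis) in each library (horizontal axis), with chromosome 3 as a diamond and the other 18 autosomes as points. Chromosome 3 is the lowest point at -0.37 and -0.40 in Smchd1 null replicates 1 and 2, and lies near 0 in Smchd1 null replicates 3 and 4.

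The lower level in Smchd1 null replicates 1 and 2 ran from end to end of the chromosome. Running medians over 21 neighbouring members were below 0 in 521 of 525 windows in Smchd1 null replicate 1 and in all 525 in Smchd1 null replicate 2, against 14 in Smchd1 null replicate 3 and 105 in Smchd1 null replicate 4. The depth of the shift was not even. In 20 Mb intervals, Smchd1 null replicate 1 had medians of -0.12 between 0 and 20 Mb, -0.30 between 20 and 40 Mb, -0.24 between 40 and 60 Mb and -0.29 between 60 and 80 Mb. It then reached -0.54 between 80 and 100 Mb and -0.49 between 100 and 120 Mb, and returned to -0.16 and -0.14 in the last intervals. There wild-type replicate 1 was lower than Smchd1 null replicate 1, at -0.21 in each interval. Smchd1 null replicate 2 ranged from -0.24 in the first interval to -0.49 between 100 and 120 Mb, with -0.35 in the last. The lowest windows were -0.79 in Smchd1 null replicate 1, from Car14 to Lix1l, and -0.83 in Smchd1 null replicate 2, from Txnip to Pde4dip. Both were also the lowest windows of any autosome in these libraries.

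**Figure D3:**
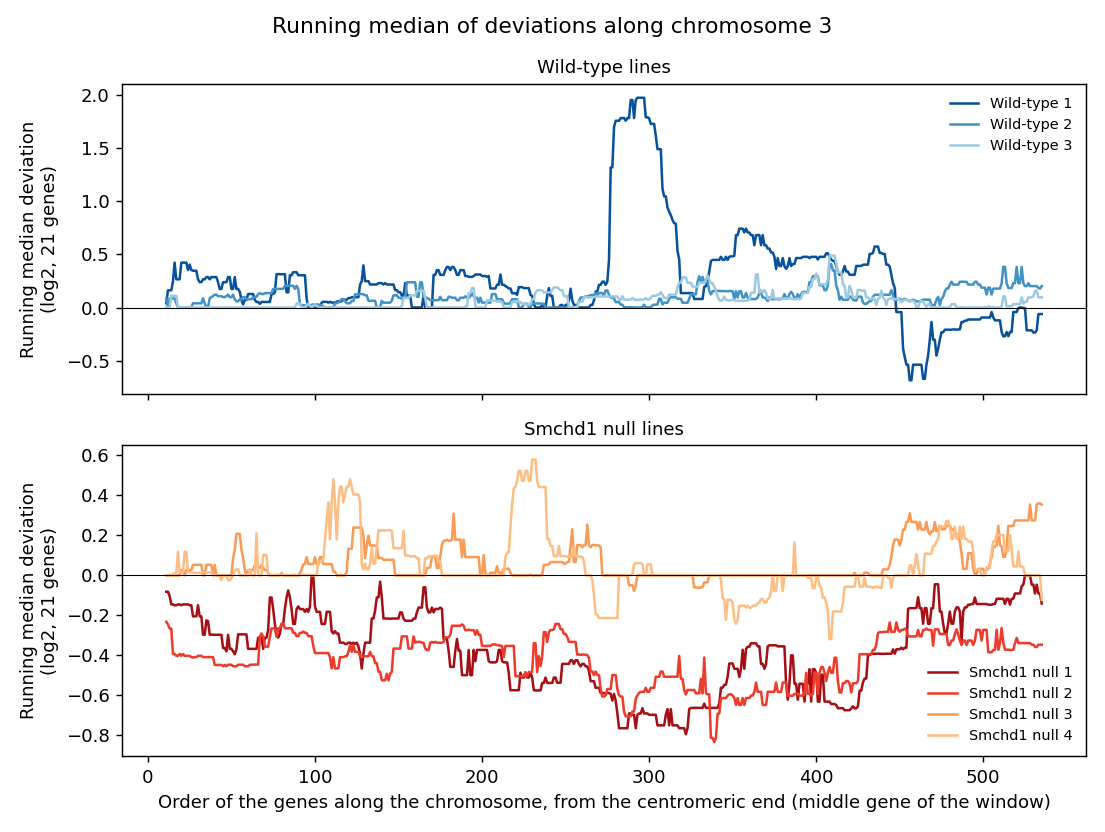
Running median of the deviation of log2 CPM over 21 neighbouring members (vertical axis) against the order of the 545 members along the chromosome (horizontal axis), wild-type lines above and Smchd1 null lines below. Smchd1 null replicates 1 and 2 stay under 0 along nearly the whole chromosome, and wild-type replicate 1 has a narrow peak that reaches 1.97 and a drop to -0.68 further on.

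The shift was of a like size in weakly and strongly counted genes. With the members split into 3 classes by mean CPM, the median deviation of Smchd1 null replicate 1 was -0.34 in the low class of 182 members, -0.41 in the middle class of 181 and -0.37 in the high class of 182. For Smchd1 null replicate 2 the medians were -0.35, -0.40 and -0.41. The spread between members narrowed with level, from an interquartile range of 0.82 in the low class to 0.34 in the high class for Smchd1 null replicate 2. The low class therefore says least about single genes.

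Smc4, Serp1 and Anp32e, each the member with the highest mean CPM in its 20 Mb interval, show the pattern gene by gene. Smc4, a core subunit of condensin that compacts mitotic chromosomes, was at 852, 767 and 703 CPM in wild-type replicates 1 to 3. In the null lines it was at 406 and 486 CPM in replicates 1 and 2 and at 744 and 706 CPM in replicates 3 and 4. Serp1, which stabilises membrane proteins in the endoplasmic reticulum, was at 848, 1080.3 and 1073 CPM in the wild-type lines and at 595, 664, 1019 and 1197 CPM in the null lines. Anp32e, a histone chaperone that removes H2A.Z, was at 2147, 1211 and 1189 CPM in the wild-type lines and at 678, 780.1, 1272 and 1199 CPM in the null lines. In all 3 genes Smchd1 null replicates 1 and 2 were the lowest libraries.

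In the other intervals, the member with the highest mean CPM did not have Smchd1 null replicates 1 and 2 as its lowest pair. Fabp5, a fatty acid-binding protein and the first of them along the chromosome, was lowest in wild-type replicate 1, at 83.0 CPM. Gm5148 was at 297 CPM in wild-type replicate 1 and from 1014 to 1188 CPM in the remaining libraries. Ube2d3, a ubiquitin-conjugating enzyme, was at 308, 462 and 399 CPM in the wild-type lines and at 356, 321, 492 and 420.4 CPM in the null lines, with overlapping groups. Slc16a1, the lactate transporter MCT1, was at 959.5, 526 and 499 CPM in the wild-type lines and at 798, 457, 630.01 and 325 CPM in the null lines. Fubp1, which binds single-stranded DNA upstream of Myc, was at 751, 369 and 319.5 CPM in the wild-type lines and at 480, 382, 596 and 449 CPM in the null lines. The lowest library was Smchd1 null replicate 4 for Slc16a1 and wild-type replicate 3 for Fubp1.

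Wild-type replicate 1 differed from all other lines in a short stretch that begins at Pogz and ends at Prpf3. The stretch covers 1.03 Mb (chr3:94822989-95855885 from the first base of Pogz to the last of Prpf3) and holds 33 members. Its limits were set after the values were seen, and no test was made. The median deviation of the 33 members in wild-type replicate 1 was 1.91, with an interquartile range from 1.62 to 2.23, and wild-type replicate 1 was the highest library in 29 of them (87.9%). In the other 6 libraries the medians were 0.05 and 0.09 in wild-type replicates 2 and 3, -0.66 and -0.59 in Smchd1 null replicates 1 and 2, and 0.00 in Smchd1 null replicates 3 and 4. The level in wild-type replicate 1 was a median 4.23-fold of the median over the other 6 libraries. Running medians of 1 or more in any library occurred in 34 of the 525 windows on chromosome 3 and in 0 of the 10638 windows on the other autosomes, where the highest was 0.906.

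Genes that control chromatin and transcription took part in it. Setdb1, a methyltransferase for lysine 9 of histone H3, was at 1360.1 CPM in wild-type replicate 1, 252 and 266 CPM in wild-type replicates 2 and 3, and 158, 152, 257 and 209 CPM in the null lines. Gabpb2, a subunit of the GABP transcription factor, was at 1521 CPM in wild-type replicate 1 and 193 to 409 CPM in the rest. Pogz, a zinc finger protein that interacts with HP1, was at 514 CPM against 85.2 to 177 CPM. Arnt, the partner of the hypoxia-inducible factors, was at 493 CPM against 58.1 to 130 CPM, and Vps72, which deposits H2A.Z, at 295 CPM against 50.8 to 85.2 CPM. In each of them wild-type replicate 1 stood clear of the other 6 lines.

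Wild-type replicate 1 was also the highest library for the following members of the stretch. Mcl1, an anti-apoptotic member of the Bcl2 family, was at 1167 CPM in wild-type replicate 1, 365 and 383 CPM in wild-type replicates 2 and 3, and 243, 240.3, 329 and 666 CPM in the null lines. Its second-highest library was thus Smchd1 null replicate 4. The proteasome subunit genes Psmd4 and Psmb4 were at 1129 and 1644 CPM in wild-type replicate 1, against at most 235 and 467 CPM in the other lines. Ensa, an inhibitor of the phosphatase PP2A in mitosis, was at 622 CPM against 89.0 to 166 CPM. Cers2, a ceramide synthase, was at 781 CPM against 155 to 245 CPM, and Ctss, the lysosomal protease cathepsin S, at 372.5 CPM against 96.2 to 150.0 CPM. The splicing factor gene Prpf3, at the far end, was at 624 CPM against 82.0 to 155 CPM.

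The largest ratios belonged to weakly counted genes. Tnfaip8l2, which restrains Toll-like and T cell receptor signalling, was 32.6-fold over the median of the other libraries at 43.3 CPM, but Smchd1 null replicate 4 came close to it at 35.6 CPM and the wild-type replicates 2 and 3 were at 0.5 and 0.4 CPM. Anxa9, an annexin, was 19.6-fold over that median at 63.7 CPM, with 21.01 CPM in Smchd1 null replicate 4. A few members did not take part. Selenbp1, a selenium-binding protein, was at 20.4 CPM in wild-type replicate 1 and at 110.2 and 133 CPM in wild-type replicates 2 and 3, and Smchd1 null replicate 4 had only 0.5 CPM. Lysmd1 was at 11.6 CPM in wild-type replicate 1, inside the range of 7.9 to 15.1 CPM of the other 6. Selenbp1 has a close paralog next to it, Selenbp2, and counts may be shared between them.

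**Figure D4:**
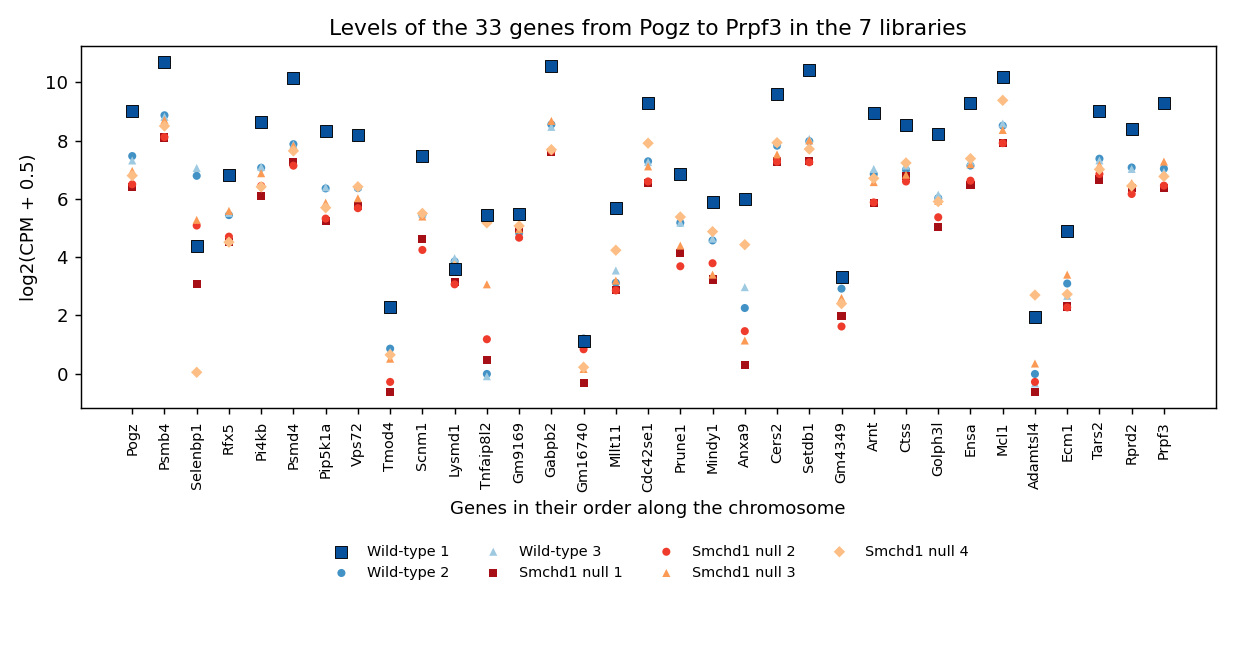
Level of each of the 33 members from Pogz to Prpf3 as log2(CPM + 0.5) (vertical axis) in the 7 libraries, in order along the chromosome (horizontal axis). Wild-type replicate 1, the large squares, is the highest library in 29 of the 33 genes, with Selenbp1 and Lysmd1 among the exceptions.

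The flanks of the stretch also differed in wild-type replicate 1. The 273 members before Pogz had a median deviation of 0.15 in that library, and the 139 members after Prpf3 and up to Ptbp2 had 0.48. Past Ptbp2 the 100 remaining members had a median of -0.21. Neighbours on either side of that point were at 1.55 for Ptbp2, a splicing regulator, and at -0.80 for Rwdd3, -0.69 for Alg14 and -0.97 for Cnn3. The lowest window, from Rwdd3 to Fam241a, had a median of -0.68. In the same 4 stretches Smchd1 null replicate 2 was at -0.36, -0.59, -0.54 and -0.33, and so remained low throughout. These points of change were read from the running medians. Wild-type replicate 1 alone made up batch 1, and library, batch and read layout cannot be told apart.

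The comparison the study was designed for, Smchd1 null against wild-type, was fitted over all 12303 genes with voom and sample weights in limma. On chromosome 3, 101 members were differentially expressed (DE, FDR under 0.05), 95 lower and 6 higher in the null lines. This is 17.4% of the members lower and 1.101% higher, against 6.85% lower and 5.06% higher among all genes tested. Chromosome 3 was not alone in this. The share called lower was 38.1% on chromosome 19, with a median log2 fold change of -0.56, 17.9% on chromosome 1 and 13.3% on chromosome 12. The median log2 fold change of the members was -0.45, against -0.01 over all genes tested, and 463 members (85.0%) had a negative value, against 49.1% of the genes on the other autosomes. Because the chromosome was chosen on the same counts, these shares describe it and do not test it. All null lines lay below all wild-type lines in 92 members (6.85% of all genes tested did so) and above them in 10 (6.35% of all genes). Members that were both DE and separated in this way numbered 55 lower and 4 higher. No share over all genes is given for both together, so these counts have no background beside them.

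Smchd1 null replicates 1 and 2 were the lowest pair of libraries in 54 of the 95 lower members (56.8%), against 47.2% of all members. With both left out, 0 members were DE in limma, although 83 had an unadjusted p under 0.05. Calls over all genes fell from 1466 to 19 in that fit, so the 0 is not particular to chromosome 3. The share called lower over all genes was then 0.00839%, and the median log2 fold change of the members was -0.06. When the median deviation of each chromosome in each library was first subtracted, 58 members were DE, 36 lower and 22 higher, against 4.71% lower and 4.97% higher of all genes. All 36 lower members were among the original 95, and all 6 higher members were retained. The count was also 0 in limma without wild-type replicate 2 or without wild-type replicate 3, with 98 and 110 members at an unadjusted p under 0.05. Each of these fits called only 1 gene over the whole series, of 12125 and 12079 tested. Those falls to 0 were thus not particular to chromosome 3 either. Only 1 member was DE without sample weights in limma, or in the quasi-likelihood test of edgeR, each of which called 0.0975% of all genes.

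That member was Trim2, a ubiquitin ligase of the tripartite motif family, which the naming rule did not select and which is named here because of this result. It was at 49.4, 35.9 and 36.1 CPM in the wild-type lines and at 14.2, 15.1, 14.5 and 14.2 CPM in the null lines. The means were 40.4 ± 7.72 CPM (SD, n = 3) and 14.5 ± 0.41 CPM (SD, n = 4), and every null line was below every wild-type line. The log2 fold change was -1.31 (SE 0.12) with an FDR of 0.00246 with sample weights, 0.0451 with voom alone and 0.0418 in edgeR's quasi-likelihood test. Smchd1 null replicates 3 and 4 were as low as replicates 1 and 2, which was unlike the chromosome as a whole.

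The largest decreases with separated groups included Car2, St6galnac3, Il12a and Selenbp2. Car2, a carbonic anhydrase, was at 0.827, 2.95 and 7.62 CPM in the wild-type lines and at 0.444 CPM in Smchd1 null replicate 1, and had 0 counts in the other 3 null lines. With 73 counts against 3, the ratio of wild-type to null was 39.7, with an exact 95% counting interval from 13.05 to 197. Of the 73 counts, 52 came from wild-type replicate 3. Wild-type replicate 1 had 3 counts, as many as Smchd1 null replicate 1, so only library size separates these lines. St6galnac3, a sialyltransferase for glycolipids, was at 3.31, 8.04 and 7.91 CPM in the wild-type lines and at 0, 0.321, 0.772 and 0 CPM in the null lines, a log2 fold change of -4.96 (SE 0.74, limma FDR 0.0114). Il12a, the p35 chain of interleukin 12, was at 4.14, 3.94 and 4.10 CPM and at 0, 0.321, 1.24 and 0.133 CPM, a log2 fold change of -3.75 (SE 0.69, limma FDR 0.0181). Selenbp2 was at 10.2, 22.5 and 23.7 CPM and at 0.740, 5.78, 8.19 and 0.133 CPM, a log2 fold change of -3.04 (SE 0.70, limma FDR 0.0325). Several of these null levels are under the level of 3 counts.

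Better counted were Acp6 and Bcl9, which are neighbours. Acp6, a mitochondrial lysophosphatidic acid phosphatase, was at 51.3, 78.2 and 78.4 CPM in the wild-type lines and at 11.4, 11.1, 35.8 and 29.4 CPM in the null lines. Its log2 fold change was -2.31 (SE 0.32, limma FDR 0.00976). Bcl9, a co-activator of beta-catenin in Wnt signalling, was at 47.7, 76.4 and 61.1 CPM and at 17.9, 16.5, 24.9 and 33.8 CPM, a log2 fold change of -1.80 (SE 0.21, limma FDR 0.00656). In both genes all 4 null lines were below all wild-type lines and Smchd1 null replicates 1 and 2 were the lowest.

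The other decreases in this class covered signalling, transport and detoxification. Csf1, the growth factor of macrophages, was at 14.3, 15.9 and 14.7 CPM in the wild-type lines and at 2.52, 6.26, 6.49 and 0.532 CPM in the null lines (log2 fold change -1.90, SE 0.42, limma FDR 0.0297). Gstm1, a glutathione transferase with close paralogs on either side, was at 10.5, 11.6 and 18.2 CPM and at 3.70, 3.05, 6.02 and 2.13 CPM (-1.95, SE 0.38, limma FDR 0.0212). Sv2a, a synaptic vesicle protein, fell from 8.55, 4.26 and 4.69 CPM to between 0.642 and 2.26 CPM (-2.17, SE 0.39, limma FDR 0.0157). Sort1, the sorting receptor sortilin, was between 1.65 and 3.81 CPM in the wild-type lines and between 0.266 and 0.889 CPM in the null lines. Kcnmb3, a potassium channel subunit, was between 2.76 and 4.84 CPM and between 0.266 and 1.54 CPM in the null lines. It overlaps the end of Pik3ca on the other strand, and the library kit does not mark strand, so reads there cannot be assigned.

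Increases were few. Rap2b, a small GTPase of the Ras family, was at 10.5, 12.6 and 10.99 CPM in the wild-type lines and at 31.8, 25.5, 37.2 and 36.6 CPM in the null lines, a log2 fold change of 1.35 (SE 0.17, limma FDR 0.00800). All null lines were above all wild-type lines by a wide margin, including those with low chromosome 3 levels. Eif5a2, a paralog of the translation factor eIF5A, was at 0, 5.08 and 4.54 CPM and at 11.8, 12.8, 17.5 and 31.9 CPM, a log2 fold change of 1.68 (SE 0.44, limma FDR 0.0453). Sec24d, a coat component of vesicles leaving the endoplasmic reticulum, had 2 counts in all wild-type lines together and 410 in the null lines, at 16.7, 1.45, 4.17 and 34.7 CPM. The ratio was 126, with an exact 95% counting interval from 34.6 to 1042 that leaves out the spread between lines. Mlf1, a myeloid leukaemia factor, had 2 counts against 44, a ratio of 13.5 with an interval from 3.52 to 115.

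The other 2 higher members had overlapping groups. Tpm3, a tropomyosin, was at 421, 304 and 286 CPM in the wild-type lines and at 395, 428, 609 and 669 CPM in the null lines (log2 fold change 0.64, SE 0.15, limma FDR 0.032). Col25a1, a collagen, was at 7.11 and 6.18 CPM in Smchd1 null replicates 1 and 3 and at no more than 0.665 CPM in the other 5 libraries. They are named because they complete the 6 higher members.

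**Figure D5:**
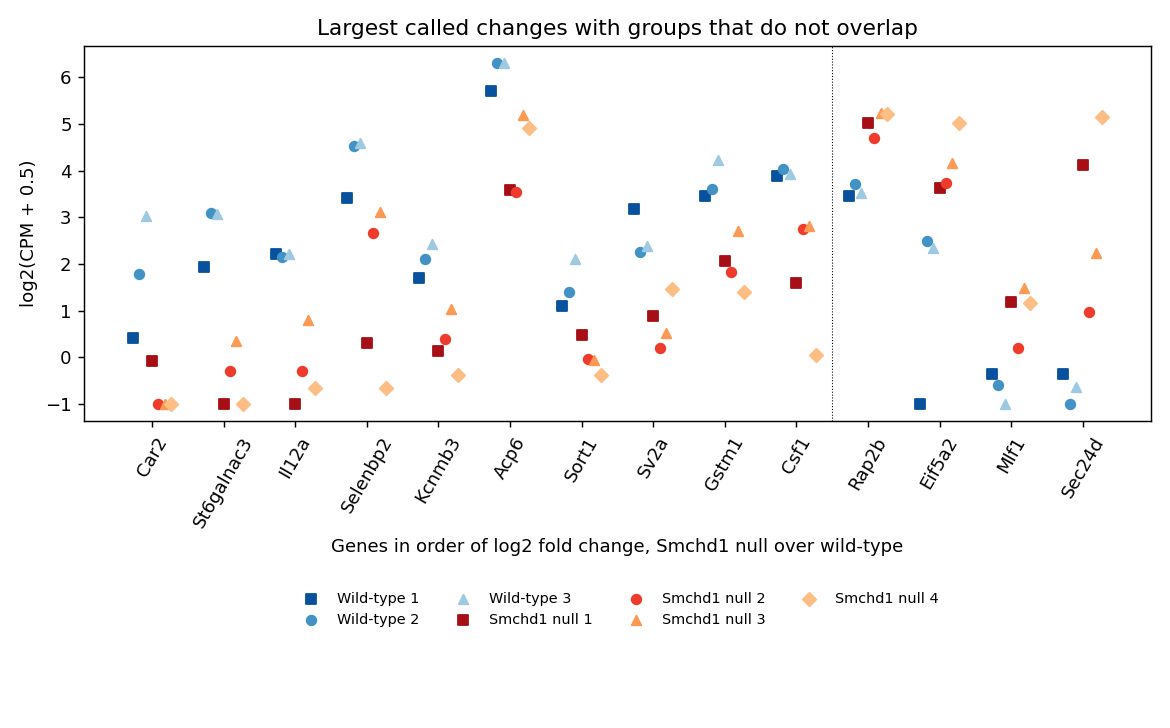
Level as log2(CPM + 0.5) (vertical axis) in each of the 7 libraries for the 10 largest decreases and the 4 increases among DE members whose groups do not overlap (horizontal axis, in order of log2 fold change). Car2 has 0 counts in 3 null lines and St6galnac3 in 2, and in Rap2b the null lines lie between 25.5 and 37.2 CPM, above the 10.5 to 12.6 CPM of the wild-type lines.

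Members grouped by function mostly followed the chromosome. The lists were written from general knowledge with earlier results of these data known, and their counts stand beside 17.4% of all members and 6.85% of all genes tested called lower. Of 20 members that act in signalling or transcription in lymphocytes, 7 were called, all lower, and 19 had a negative log2 fold change, with a median of -0.49. Of 16 members of the cell cycle and mitosis list, 4 were called lower, all 16 were negative and the median was -0.51. Of 23 chromatin and RNA modifiers, 3 were called lower, 22 were negative and the median was -0.47. Of 22 members for protein synthesis and breakdown, 1 was called lower, 19 were negative and the median was -0.31. Over all 545 members 85.0% were negative with a median of -0.45, and over all genes tested the median was -0.01.

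Within the signalling list, the GTPase gene Nras was at 360, 223 and 220.3 CPM in the wild-type lines and at 121, 126, 144 and 107 CPM in the null lines, a log2 fold change of -0.83 (SE 0.11, limma FDR 0.00976). Smchd1 null replicate 4 was the lowest library here, and no null line reached the wild-type range. Prkci, an atypical protein kinase C, was at 133, 152 and 146 CPM and at 87.1, 95.9, 108 and 90.8 CPM (-0.64, SE 0.09, limma FDR 0.0109). Gnai3, an inhibitory G protein subunit, was at 315, 255 and 257 CPM and at 138, 144, 219.9 and 220.4 CPM (-0.68, SE 0.15, limma FDR 0.0265). Pik3ca, the catalytic subunit of phosphoinositide 3-kinase, lay between 187 and 209 CPM in the wild-type lines and between 125 and 183 CPM in the null lines. Tpd52, a regulator of vesicle traffic in B cells, lay between 114 and 132 CPM and between 56.5 and 110.2 CPM. Ppp3ca, the catalytic subunit of calcineurin, overlapped between groups, at 164 CPM in Smchd1 null replicate 4. Mef2d, a transcription factor of the MADS family with the highest mean CPM of this list, was not called and lay between 326.5 and 480.2 CPM.

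In the cell cycle list, Cdc14a, a phosphatase that opposes mitotic kinases, was between 24.6 and 33.3 CPM in the wild-type lines and between 12.1 and 16.2 CPM in the null lines (log2 fold change -0.98, SE 0.20, limma FDR 0.024). Sass6, which forms the cartwheel of the centriole, was at 62.6, 57.2 and 55.7 CPM and at 30.1, 29.4, 52.5 and 41.0 CPM (-0.72, SE 0.17, limma FDR 0.0339). Iqgap3, a scaffold protein of dividing cells, and Casp6, an executioner caspase, were called with groups that overlapped. Among chromatin and RNA modifiers, Mov10, an RNA helicase, was at 62.9, 34.6 and 30.3 CPM and at 13.9, 10.3, 8.03 and 18.6 CPM (-1.57, SE 0.23, limma FDR 0.0109). Tet2, which oxidises 5-methylcytosine, was at 19.02, 36.1 and 31.2 CPM and at 14.5, 18.95, 24.7 and 28.9 CPM (-0.79, SE 0.20, limma FDR 0.0402). Gatad2b, a subunit of the NuRD complex, was at 51.8, 70.04 and 65.5 CPM and at 39.4, 44.3, 60.1 and 59.8 CPM. Sars, a seryl-tRNA synthetase and the called member for protein synthesis, was at 209.998 and 175 CPM in Smchd1 null replicates 1 and 2 but at 337 and 446 CPM in replicates 3 and 4, against 354 to 454 CPM in the wild-type lines. In that list Rps3a1, a ribosomal protein gene, had the highest mean CPM and lay between 377 and 683 CPM, with Smchd1 null replicates 1 and 2 lowest.

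Of 10 members that encode leukocyte surface receptors and cytokines, 4 were called, all lower, against 17.4% of all members and 6.85% of all genes tested, and the median log2 fold change was -0.76. Besides Il12a and Csf1 they were Tlr2, the receptor for bacterial lipoproteins, and Cd1d1, which presents lipids to natural killer T cells. Tlr2 was at 2.48, 10.01 and 7.91 CPM in the wild-type lines and at 2.52, 3.21, 3.09 and 7.98 CPM in the null lines, so that the groups overlapped. Cd1d1 was at 2.48, 8.04 and 9.38 CPM and at 2.81, 1.61, 2.63 and 1.20 CPM (log2 fold change -1.99, SE 0.38, limma FDR 0.0202), with wild-type replicate 1 inside the null range. Cd53, a tetraspanin of leukocytes, was not called and lay between 101 and 249 CPM.

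The smaller families gave mixed pictures. Of 3 members among the carbonic anhydrases and fatty acid-binding proteins, Car2 and Fabp5 were called lower. Fabp5 was at 83.0, 239 and 230.4 CPM in the wild-type lines and at 109.7, 101, 134 and 196 CPM in the null lines, with wild-type replicate 1 the lowest of all. Of 3 mu class glutathione transferases 1 was called, and of 2 ephrin-A ligands, Efna1 was called at 1.65, 3.77 and 3.52 CPM against 0.296, 0.321, 0.463 and 1.99 CPM, with overlapping groups. Efna4 lay between 0.642 and 3.86 CPM and was not called. Of 6 histone genes, H2bc21 was called, with 47.1 CPM in Smchd1 null replicate 4 inside the wild-type range of 37.8 to 48.2 CPM, and counts of histone genes with near-identical copies are uncertain. S100a10, which had the highest mean CPM of 4 S100 genes, was not called and was at 67.8 and 62.5 CPM in Smchd1 null replicates 1 and 2 and at 161 and 322 CPM in replicates 3 and 4. Adh5, the single alcohol dehydrogenase among the members, lay between 141 and 272 CPM.

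Calls were spread over the chromosome, with the highest share called lower between 100 and 120 Mb, at 27.8%. The share was 19.5% between 80 and 100 Mb and 19.2% between 0 and 20 Mb, and 5.71% in the lowest interval. Over all members it was 17.4%, and over all genes tested 6.85%. The median log2 fold change was -0.56 between 100 and 120 Mb and -0.52 between 80 and 100 Mb. It lay between -0.11 and -0.33 elsewhere. In the stretch from Pogz to Prpf3, 5 of 33 members (15.2%) were called lower, namely Pogz, Pip5k1a, Prune1, Mindy1 and Rprd2. That share was below the 17.4% of all members. The high values of wild-type replicate 1 entered that fit with a sample weight of 0.246, against 3.78 and 3.06 for wild-type replicates 2 and 3. Members called lower had a median of 15.5 CpG dinucleotides in the 250 bases before the start, against 16 for members not called.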

How the data were processed

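Total RNA of Eµ-Myc lymphoma lines was sequenced in 7 libraries. The authors aligned reads to mm10 with Subread and counted them per Entrez gene with featureCounts, and the deposited values are raw counts, not normalised. The labels also name CASAVA 1.8.2, edgeR 3.8.2 and limma 3.22.0. The handling of multi-mapping reads is not given in the sources used here. RefSeq GRCm38.p6 matched 25275 of 27179 identifiers. The members and gene lists were chosen with earlier results of these data known.

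The filter asked for 0.5 CPM in at least 3 libraries. Deviations used edgeR 4.0.16 log2 CPM (TMM, prior count 2). Groups of 3 and 4 libraries were compared with voomWithQualityWeights and eBayes in limma 3.58.1 (R 4.3.3, no covariate) at a Benjamini-Hochberg FDR under 0.05 over all genes. DESeq2 1.42.0 was an alternative. The script was tested on simulated data. CPM in the text uses total counts, and intervals cover counting error only.

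Named genes were the 10 largest increases and decreases among called members with separated groups, the member with the highest mean CPM in each 20 Mb interval and list, and called list members. Promoters used the most upstream start listed. Of the B cell markers, 1 is not reported here.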

Additional observations from a re-analysis of the deposited data

Results flagged for a closer look

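Of 56 group-wise values screened among the named members, 2 had a sample far from the others of its group of 4 null lines, where chance would give about 2.8. Car2 stood at a log2 CPM of -0.364 in Smchd1 null replicate 1, against -1.63 in the other 3 null lines, which all had 0 counts. Mef2d stood at a log2 CPM of 8.93 in Smchd1 null replicate 3, against 8.40 in the nearest null line.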

How the results depend on the processing

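The number of chromosome 3 members called, 101 in limma with sample weights, depended on the weights and on single lines. The 101 were 18.5% of the members, against 11.9% of all genes called. With block weights the count was 37 (36 lower, 1 higher), or 6.79% against 4.01% of all genes. With voom alone it was 1 (1 lower, 0 higher) and in edgeR's quasi-likelihood test 1 (1 lower, 0 higher). Each of these called 0.0975% of all genes. In DESeq2 it was 35, 30 of them lower, or 6.42% against 3.12% of all genes. Members at an unadjusted p under 0.05 numbered 122 with voom alone and 127 in edgeR. At an FDR threshold of 0.1 the count was 189 (179 lower, 10 higher), or 34.7% against 22.7% of all genes. With at least 10 counts in every library, 132 members were lower and 2 higher. These were 31.7% of the 423 members kept, against 16.1% of all genes called. With wild-type replicates 2 and 3 summed into 1 sample the count was 0 (0 lower, 0 higher), with 107 members at an unadjusted p under 0.05. That fit called 0.00813% of all genes. When each library was left out in turn, the count ran from 0 without wild-type replicate 2 or 3 to 134 without Smchd1 null replicate 3. The lower members ran from 0 to 133 and the higher from 0 to 7. Over all genes the share called in these fits ran from 0.00825% without wild-type replicate 2 to 13.6% without wild-type replicate 1. Without Smchd1 null replicate 1 the count was 27, or 5.01% against 4.26% of all genes. Without Smchd1 null replicate 2 it was 18, or 3.31% against 2.73% of all genes. The median log2 fold change then ran from -0.54 to -0.24 and kept its sign. Without both Smchd1 null replicates 1 and 2, an alternative chosen after the data were seen, the count was 0 (0 lower, 0 higher) and the median -0.063. That fit called 0.159% of all genes. With chromosome deviations subtracted, also chosen after the data were seen, the count was 58 (36 lower, 22 higher) and the median -0.11. This was 10.6% against 9.68% of all genes. Batch as a covariate gave 112 members (20.6% against 13.6% of all genes) and relative log expression 102 (18.7% against 11.7%). No filter gave 96 (12.8% against 8.65%). Omission of wild-type replicate 1, which leaves batch 2 alone, gave 111 (20.9% against 13.6%).

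Replicate numbers 1, 2 and 3 are found in each group, but same-numbered lines correlated at -0.15, 0.22 and -0.21 in their deviations across genes, so the numbers were not taken as pairs. With the replicate block the count was 21 (19 lower, 2 higher), or 3.85% of members against 1.80% of all genes. The lines did not each correlate best with their own number.

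The median deviations of Smchd1 null replicates 1 and 2 stayed between -0.49 and -0.30 under every scaling, filter, prior count and reference tried. With wild-type replicates 2 and 3 averaged in the reference, their own medians were 0.16 and 0.14. As each other library was left out of the reference, the median of wild-type replicate 3 ran from 0.034 to 0.14. Of the 34 called genes named by the rule, under 19 alternatives, 353 gene results were no longer past the threshold, 274 stayed past it and 0 changed sign. Depth limits the genes with few counts, for which 3 counts equal 0.399 to 0.827 CPM.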
